A study of Mus musculus with 6 samples.

Results

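Genes of cell adhesion and epithelial structure, 10 in number, were followed by name in mouse embryos at the 4-cell stage: Cdh1, Ctnnb1, Ctnna1, Krt8, Krt18, Tjp1, Pard6b, Ezr, Atp1b1 and Dsp. All 10 were found among the 29431 genes of the authors' deposited table, which gives FPKM (fragments per kilobase of transcript, scaled to the mapped fragments of the library) for each gene and library. Wild-type 4-cell embryos under LDHB inhibition, with the agent written AXKO-0046 in the labels, gave 3 libraries. They were set against 3 libraries of untreated wild-type 4-cell embryos. LDHB is a subunit of lactate dehydrogenase. The sources used here give no dose, length of exposure or strain, and their wording does not settle whether 6 embryos were taken per group or per library. The labels name no separate litters or cultures for the replicates, so a p-value measures the spread of these libraries alone, which can be technical.

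Compaction of the mouse embryo follows the 4-cell stage: the blastomeres flatten on each other through E-cadherin, whose cytoplasmic tail binds beta-catenin, which in turn binds alpha-catenin and so the actin cortex. Polarity proteins and ezrin then mark an apical domain, keratin filaments and tight junctions appear in the outer cells, and the sodium pump later drives fluid into the blastocyst cavity. At the 4-cell stage many of these proteins come in part from maternal stores, so a transcript level is not a protein level.

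The depth of the libraries is unknown, since the files hold no read counts, and no counting interval is given. The inhibitor libraries listed 20094 to 21731 genes above 0 and the control libraries 20997 to 22142. Total FPKM was 457016 to 498309 in inhibitor libraries and 511534 to 524538 in control libraries, and transcripts of mitochondrial DNA took 10.6% to 12% of it in inhibitor libraries and 15.1% to 18.9% in controls. Inhibitor replicate 2 stood apart, with a median correlation with the other libraries of 0.888 across genes, against 0.946 to 0.965 for the rest. Of 12 early embryo and oocyte markers 9 averaged at least 1 FPKM, led by Dppa3 at 10514 to 18144 FPKM in inhibitor and 13054 to 14496 FPKM in control libraries. Markers of later trophectoderm, fibroblasts and sperm summed to at most 1.45 FPKM in any inhibitor library and 1.28 FPKM in any control library for each list. Of the 6 cumulus and granulosa markers measured, Cyp19a1, Foxl2 and Fshr were listed at 0 in 5 libraries each and reached 0.00107, 0.0192 and 0.0711 FPKM in an inhibitor library. Kitl was at 0.706 to 1.88 FPKM in inhibitor and 0.826 to 0.980 FPKM in control libraries, and Tnfaip6 was above 0 in inhibitor replicate 3 (0.395 FPKM) and control replicate 3 (0.990 FPKM). The list summed to 13.6 to 23.9 FPKM in inhibitor and 11.1 to 17.4 FPKM in control libraries, mostly through Amhr2. The blood list summed to 69.9 to 135.8 FPKM in inhibitor and 100 to 145.9 FPKM in control libraries, almost all of it Hba-a1, with Hbb-bs at no more than 0.136 FPKM. In such bulk samples fewer cells with a transcript and less of it per cell cannot be told apart.

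Promoter sequences are shown for the member with the highest level, Ctnnb1, and for the keratin partners Krt18 and Krt8, whose levels differed within the same libraries. They are RefSeq sequences on GRCm38.p6 from 250 bases before to 50 bases after the annotated start, and capitals, which the Krt8 promoter has none of, mark matches to GCCNNNGGC, a letter pattern bound by TFAP2 factors, which reads the same on both strands.
Ctnnb1 (chr9:120933150-120933449, plus strand): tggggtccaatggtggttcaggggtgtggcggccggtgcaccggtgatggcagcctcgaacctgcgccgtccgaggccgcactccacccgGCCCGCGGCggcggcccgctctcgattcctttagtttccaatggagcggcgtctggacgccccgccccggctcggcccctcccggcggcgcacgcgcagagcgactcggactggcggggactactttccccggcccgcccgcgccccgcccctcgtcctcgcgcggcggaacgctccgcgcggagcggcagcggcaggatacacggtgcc
Krt18 (chr15:102027966-102028265, plus strand): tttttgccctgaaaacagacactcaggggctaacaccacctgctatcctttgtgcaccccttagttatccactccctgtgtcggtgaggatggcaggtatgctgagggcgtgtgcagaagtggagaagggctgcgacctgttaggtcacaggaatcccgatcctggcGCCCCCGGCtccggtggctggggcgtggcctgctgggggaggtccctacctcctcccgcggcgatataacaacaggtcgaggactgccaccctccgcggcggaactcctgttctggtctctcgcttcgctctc
Krt8 (chr15:102004293-102004592, minus strand): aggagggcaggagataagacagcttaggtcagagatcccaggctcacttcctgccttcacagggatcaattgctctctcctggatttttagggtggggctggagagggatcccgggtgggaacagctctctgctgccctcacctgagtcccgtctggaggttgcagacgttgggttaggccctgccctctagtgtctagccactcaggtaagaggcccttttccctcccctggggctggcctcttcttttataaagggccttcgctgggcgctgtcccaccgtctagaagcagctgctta

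Of the 10 genes 8 had a promoter in that table, and Cdh1 and Ctnna1 had none. The 8 genes had 9 promoters, since Ctnnb1 had more than 1, while the shares below count promoters. In 5 of the 8 genes a promoter held GCCNNNGGC, namely Ctnnb1, Krt18, Tjp1, Pard6b and Dsp. Over all 32851 promoters of 300 bases 16.6% held it, and 29.5% of the 11765 with an observed to expected CpG ratio of at least 0.6. GGAATG, the letters bound by TEAD factors, was in 0 of the 8 on either strand, against 14.7% of all promoters and 9.93% of those with that CpG ratio. Matches to these patterns can overlap at their ends, and a match describes letters, not binding. The CpG ratio was 1.08 in the Ctnnb1 promoter shown, 0.603 in that of Krt18 and 0.238 in that of Krt8, the only one of the 8 members under 0.6, while 35.8% of all promoters reached that ratio. Krt8 and Krt18 lie near each other on chromosome 15, pointing away from each other, with 23698 bases between their annotated starts.

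None of the 10 genes exceeded 12.68 FPKM in any library. Ctnnb1 was the highest of them in all 6 libraries, followed by Ctnna1, with Cdh1 below both in all 6. Below Cdh1 the neighbours in the order did not separate: Cdh1 was above Krt18 in 3 of 6 libraries, Krt18 above Atp1b1 in 3, Atp1b1 above Tjp1 in 4 and Tjp1 above Pard6b in 5. Krt8, Ezr and Dsp came last and were each listed at 0 in 3 libraries. Among all listed genes Ctnnb1 lay at percentile 84.0 to 89.9 of each library's FPKM values, Ctnna1 at 80.6 to 85.1 and Cdh1 at 69.5 to 80.2. Genes averaging at least 1 FPKM over the 6 libraries, 9691 in number, were tested with limma on log2(FPKM + 1). That left 7 of the 10. Pard6b passed this limit through the controls alone, with means of 0.968 FPKM in inhibitor and 1.07 FPKM in control libraries.

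**Figure D1:**
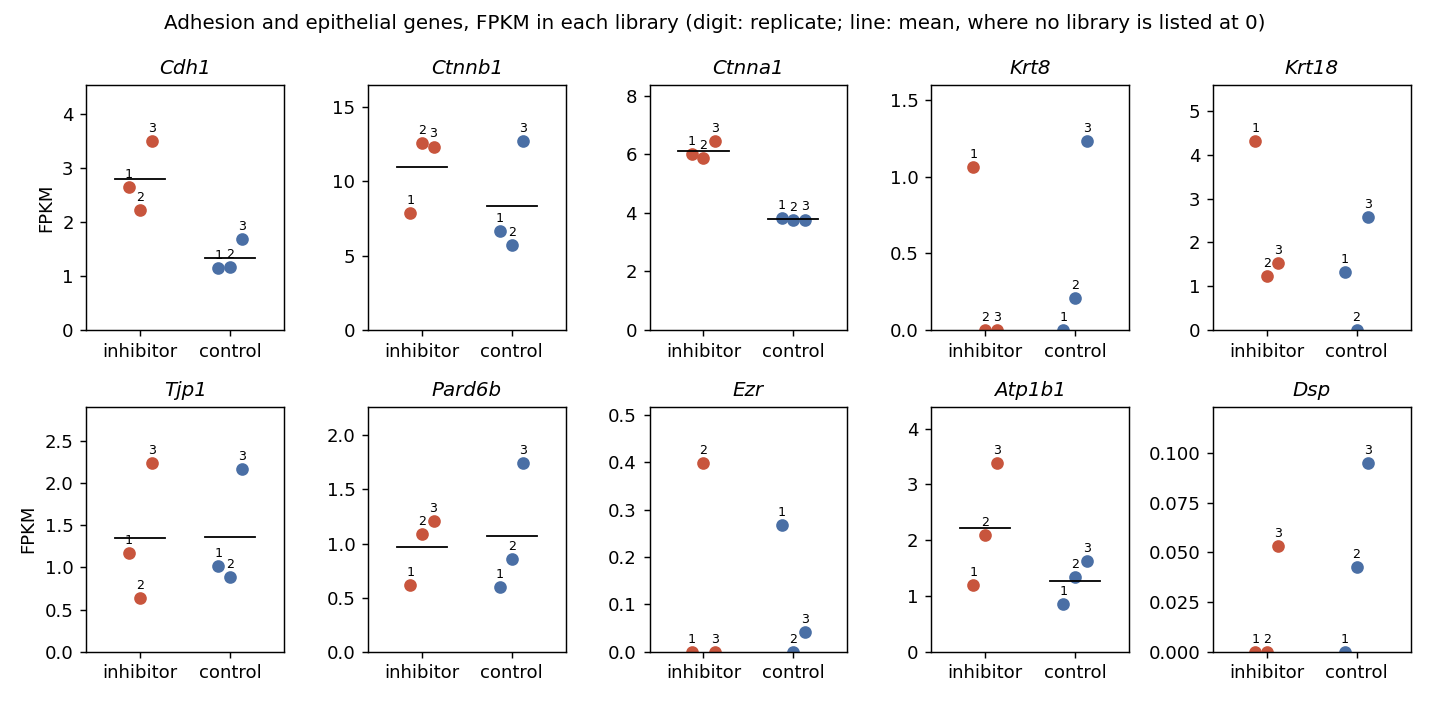
FPKM of the 10 genes in each inhibitor library (left) and control library (right), 1 panel per gene with its own axis from 0; digits give the replicate and lines the group mean, drawn where no library is listed at 0. The groups are apart for Cdh1 and Ctnna1, and overlap in the other 8 panels.

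Cdh1 and Ctnna1 were higher in every inhibitor library than in any control library, and neither passed the adjusted test. Of the 7 genes tested 0 passed in either direction in limma after Benjamini-Hochberg adjustment over all tested genes, where the background was 0% called higher and 0% called lower. Before adjustment p was under 0.05 for 2 of the 7, against 8.51% of all genes tested. Both were higher under the inhibitor and 0 lower, where 4.72% of all genes tested were higher and 3.8% lower. All inhibitor libraries lay above all controls in 2 of the 7 and below them in 0, against 9.13% and 6.26% of all genes tested. The log2 differences were above 0 in 5 and below 0 in 2, with a median of 0.46, where all genes tested had a median of 0.062 and 57.1% above 0. The 7 genes passed a limit on the level and are not independent of each other, so these counts describe them only.

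Cdh1 encodes E-cadherin, the cell surface protein by which blastomeres adhere (ENSMUSG00000000303, GRCm38 chromosome 8, 106603351 to 106670246, plus strand). It measured 2.65, 2.23 and 3.49 FPKM in inhibitor replicates 1, 2 and 3, against 1.14, 1.16 and 1.68 FPKM in control replicates 1, 2 and 3. The lowest inhibitor library was inhibitor replicate 2 and still lay above the highest control, control replicate 3. The means were 2.79 ± 0.644 FPKM in inhibitor and 1.33 ± 0.305 FPKM in control libraries (SD, n = 3 each), 2.101 times as high under the inhibitor. The log2(FPKM + 1) difference was 0.70 (SE 0.24, 95% confidence interval 0.14 to 1.25, limma unadjusted p = 0.0193, adjusted p = 0.493), which on this scale understates the change of so low a gene. By p it ranked 374 of 9691 tested genes. With 1 library left out the difference ran from 0.57 (without inhibitor replicate 3) to 0.81 (without inhibitor replicate 2). Over all alternatives the limma adjusted p ran from 0.433 to 0.900. The mitochondrial share and total FPKM moved with the groups as given above, and under median-ratio scaling and quantile normalization the Cdh1 difference was 0.64 and 0.63. The part of the mitochondrial share in this and the other results was not tested.

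Ctnna1 encodes alpha-E-catenin, which links the cadherin complex to actin (ENSMUSG00000037815, chromosome 18, 35118859 to 35254779, plus strand). It measured 6.01, 5.89 and 6.44 FPKM in inhibitor replicates 1, 2 and 3, against 3.84, 3.75 and 3.77 FPKM in the controls in the same order. The values within each group lay close together and the groups were well apart. The means were 6.11 ± 0.293 FPKM in inhibitor and 3.79 ± 0.0468 FPKM in control libraries (SD, n = 3 each), a ratio of 1.61. The log2 difference was 0.57 (SE 0.21, 95% confidence interval 0.091 to 1.05, limma unadjusted p = 0.025, adjusted p = 0.514). With 1 library left out it ran from 0.54 (without inhibitor replicate 3) to 0.59 (without inhibitor replicate 2). It was 0.50 under median-ratio scaling and 0.47 under quantile normalization, and the limma adjusted p ran from 0.404 to 0.900 over all alternatives. Lrrtm2, a gene for a synaptic adhesion protein that lies on the opposite strand within the Ctnna1 locus and shares 95 exon bases with it, was looked up after its values were seen. It was at 0.106, 0.0799 and 0.250 FPKM in inhibitor libraries, against 0, 0.00560 and 0.00442 FPKM in controls. The labels do not mention strand, and whether the 2 genes share reads was not tested.

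Ctnnb1 encodes beta-catenin, which binds the E-cadherin tail and also acts in Wnt signalling (ENSMUSG00000006932, chromosome 9, 120929216 to 120960507, plus strand). It measured 7.90, 12.6 and 12.3 FPKM in inhibitor replicates 1, 2 and 3, against 6.63, 5.69 and 12.7 FPKM in the controls. Control replicate 3 was the highest of all 6, so the groups overlapped. The means were 10.9 ± 2.63 FPKM in inhibitor and 8.33 ± 3.79 FPKM in control libraries (SD, n = 3 each). The log2 difference was 0.40 (SE 0.32, 95% confidence interval -0.33 to 1.14, limma adjusted p = 0.730). It was 0.71 without control replicate 3 and 0.20 without control replicate 2. The gene shares 759 exon bases with Ulk4 on the opposite strand, which was at 0.1601 to 0.975 FPKM in inhibitor and 0.437 to 0.709 FPKM in control libraries.

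Within a library the 3 core transcripts can be set beside each other, since FPKM is per length. Ctnnb1 was 2.98, 5.64 and 3.53 times Cdh1 in inhibitor replicates 1, 2 and 3, and 5.79, 4.91 and 7.54 times in the controls. Ctnna1 was 2.27, 2.64 and 1.84 times Cdh1 in inhibitor libraries, against 3.35, 3.23 and 2.25 times in controls. Both ratios overlapped between the groups: inhibitor replicate 2 exceeded control replicate 2 in the first, and control replicate 3 lay below inhibitor replicates 1 and 2 in the other. The ratio of Ctnna1 to Ctnnb1 was 0.761, 0.469 and 0.522 in inhibitor libraries, against 0.579, 0.659 and 0.298 in controls, and overlapped too.

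Tjp1 encodes ZO-1, a scaffold of tight junctions that is also found at early cell contacts (ENSMUSG00000030516, chromosome 7, 65296165 to 65527781, minus strand). It measured 1.17, 0.635 and 2.24 FPKM in inhibitor replicates 1, 2 and 3, against 1.02, 0.887 and 2.16 FPKM in controls. In both groups replicate 3 was the highest and replicate 2 the lowest, and the groups overlapped over nearly their whole range. The log2 difference was -0.022 (SE 0.34, 95% confidence interval -0.79 to 0.75, limma adjusted p = 0.989). Gm44792, an unclassified gene model within the Tjp1 locus on the same strand that shares 0 exon bases with it, was at 25.8 to 67.1 FPKM in inhibitor and 50.9 to 73.2 FPKM in control libraries. It was picked out after its values were seen.

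Pard6b encodes a PAR6 protein of the apical polarity complex (ENSMUSG00000044641, chromosome 2, 168081004 to 168101203, plus strand). It measured 0.613, 1.09 and 1.21 FPKM in inhibitor replicates 1, 2 and 3, against 0.598, 0.857 and 1.74 FPKM in controls. Control replicate 3 was the highest and control replicate 1 the lowest of the 6. The log2 difference was -0.044 (SE 0.31, 95% confidence interval -0.74 to 0.65, limma adjusted p = 0.976). The interval of Tjp1 holds differences as large as those of Cdh1 and Ctnna1, and that of Pard6b one as large as that of Ctnna1.

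Atp1b1 encodes the beta-1 subunit of the sodium pump, needed for fluid transport into the blastocyst cavity (ENSMUSG00000026576, chromosome 1, 164437109 to 164458355, minus strand). It measured 1.20, 2.08 and 3.38 FPKM in inhibitor replicates 1, 2 and 3, against 0.851, 1.34 and 1.63 FPKM in controls. Inhibitor replicates 2 and 3 lay above every control, and inhibitor replicate 1 lay within the control range. The means were 2.22 ± 1.10 FPKM in inhibitor and 1.27 ± 0.396 FPKM in control libraries (SD, n = 3 each). The log2 difference was 0.46 (SE 0.31, 95% confidence interval -0.24 to 1.16, limma adjusted p = 0.692), 0.21 without inhibitor replicate 3 and 0.71 without inhibitor replicate 1. The gene shares 575 exon bases with Nme7 on the opposite strand, at 1.43 to 1.93 FPKM in inhibitor and 1.375 to 1.56 FPKM in control libraries, so part of either value may belong to the other gene.

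**Figure D2:**
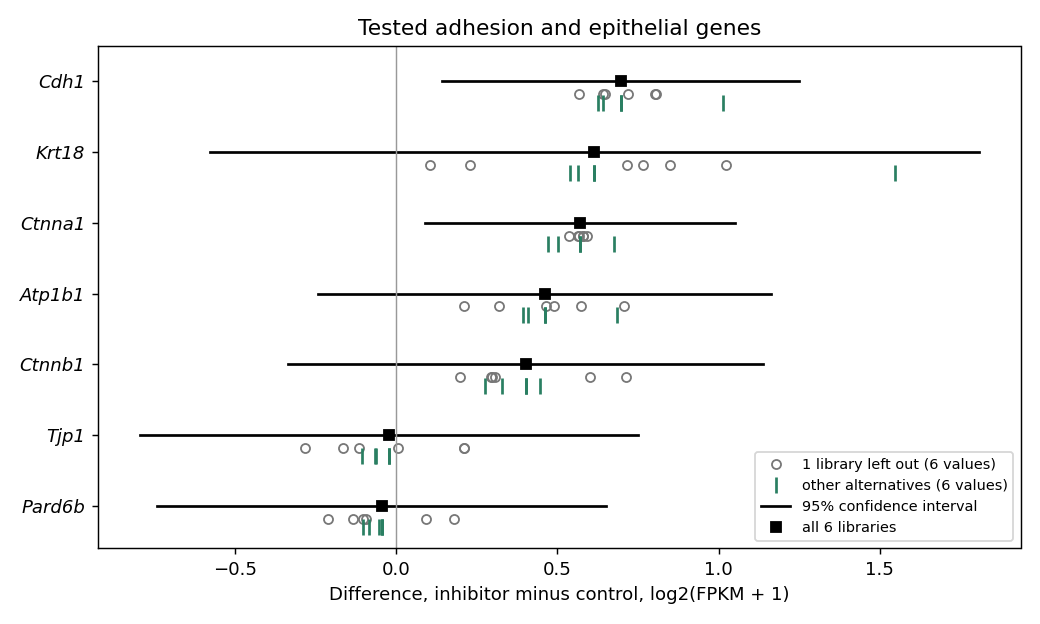
Difference between inhibitor and control libraries on the log2(FPKM + 1) scale for the 7 tested genes, with the 95% confidence interval (black), the values with 1 library left out (circles) and those under the other alternatives (green ticks). The intervals of Cdh1 (0.14 to 1.25) and Ctnna1 (0.091 to 1.05) lie above 0, and the other 5 span it.

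Krt18 and Krt8 encode the simple epithelial keratins, which form filaments as obligate partners. Krt18 (ENSMUSG00000023043, chromosome 15, 102028180 to 102032027, plus strand) measured 4.31, 1.24 and 1.52 FPKM in inhibitor replicates 1, 2 and 3, against 1.33, 0 and 2.57 FPKM in controls. Inhibitor replicate 1 was the highest and the groups overlapped. The log2 difference was 0.62 (SE 0.52, 95% confidence interval -0.58 to 1.81, limma adjusted p = 0.739), 0.11 without control replicate 2, the library listed at 0, 0.23 without inhibitor replicate 1 and 1.02 without control replicate 3. Krt8 (ENSMUSG00000049382, chromosome 15, 101996698 to 102004482, minus strand) was listed at 1.07, 0 and 0 FPKM in inhibitor replicates 1, 2 and 3, against 0, 0.211 and 1.23 FPKM in controls. It was highest in the library of each group in which Krt18 was highest, inhibitor replicate 1 and control replicate 3, and there its level was 0.248 and 0.478 times that of Krt18. A pseudogene, Krt8-ps, matches 48.1% of the Krt8 transcript at 95% identity or more and was at 0.198 FPKM or less in inhibitor and 0.107 FPKM or less in control libraries, so the low Krt8 values are uncertain.

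Ezr encodes ezrin, which ties the apical membrane to actin (ENSMUSG00000052397, chromosome 17, 6738041 to 6782784, minus strand). It was listed at 0, 0.398 and 0 FPKM in inhibitor replicates 1, 2 and 3, against 0.267, 0 and 0.0414 FPKM in controls. Dsp encodes desmoplakin, which anchors keratins to desmosomes (ENSMUSG00000054889, chromosome 13, 38151294 to 38198577, plus strand). It was listed at 0, 0 and 0.0530 FPKM in inhibitor libraries, against 0, 0.0427 and 0.0950 FPKM in controls. Both groups held libraries at 0 for Ezr, Dsp and Krt8, none of which was tested, and at unknown depth these values do not show absence. Of the 84 ribosomal protein genes averaging 1 FPKM or more, 0 were listed at 0 in any library, which does not bear on genes averaging less. Among all 9691 tested genes 230 were listed at 0 in at least 1 library, Krt18 among them.

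Several of these genes were not the most abundant of their families. Atp1b3, another beta subunit of the sodium pump, was at 211.1 to 360.6 FPKM in inhibitor and 265.3 to 294.2 FPKM in control libraries, above Atp1b1 in all 6. Pard6a was at 3.36 to 8.81 FPKM in inhibitor and 3.17 to 6.52 FPKM in control libraries, above Pard6b in all 6. Rdx, which encodes the ezrin relative radixin, was at 4.76 to 6.80 FPKM in inhibitor and 3.85 to 7.78 FPKM in control libraries, above Ezr in all 6. Cdh1, Ctnnb1 and Tjp1 lay above the paralogs they were set beside: Cdh1 was above Cdh2 and Cdh3 in all 6 libraries, Ctnnb1 above Jup (plakoglobin) in all 6, and Tjp1 above Tjp3 in all 6. Jup measured 0.944, 1.02 and 0.296 FPKM in inhibitor replicates 1, 2 and 3, against 0.0107, 0.0602 and 0.574 FPKM in controls, which overlapped.

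**Figure D3:**
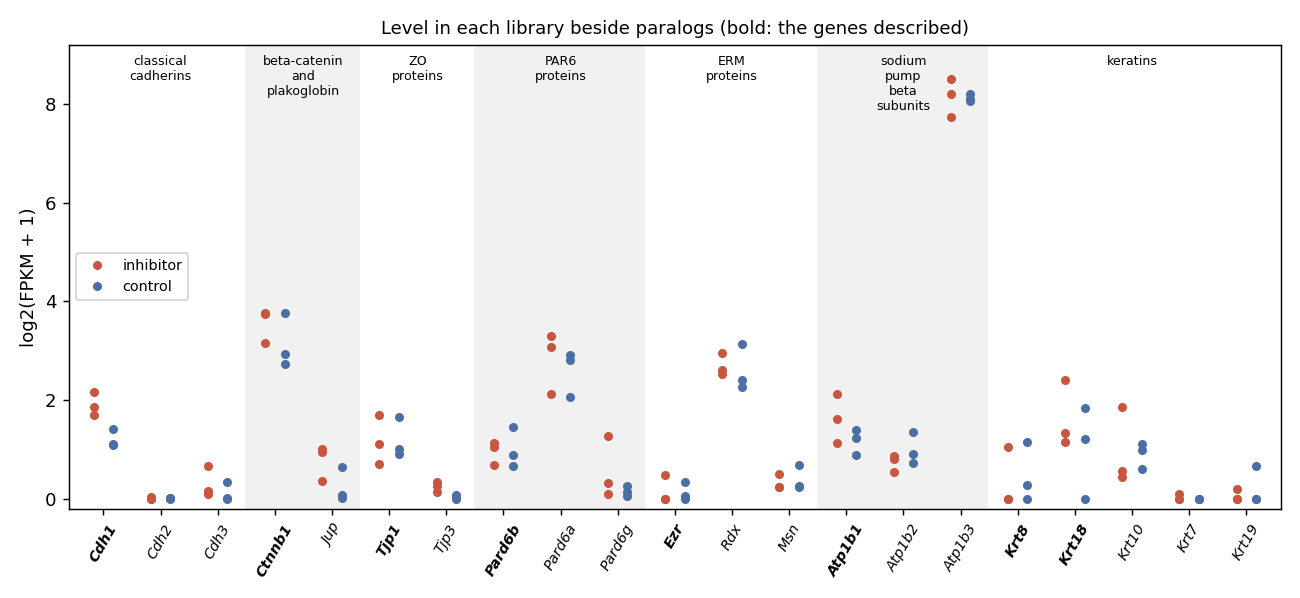
Level on the log2(FPKM + 1) scale in each inhibitor (red, left) and control (blue, right) library for the genes described (bold) and their paralogs, grouped by family. Atp1b3, Pard6a and Rdx lie above Atp1b1, Pard6b and Ezr in all 6 libraries, while Cdh1, Ctnnb1 and Tjp1 lie above the paralogs shown.

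The wider junction and polarity genes were taken from 8 lists. Besides the 10 genes they named 97, of which 90 were in the table and 48 were tested. In limma 0 of the 48 passed in either direction after adjustment. Before adjustment 4 with p under 0.05 were higher and 1 lower, and the inhibitor libraries lay above all controls in 6 and below them in 3. Over all genes tested the shares were 4.72% and 3.8% before adjustment, and 9.13% and 6.26% for groups apart. The log2 differences were above 0 in 35 and below 0 in 13, beside 57.1% above 0 for all genes tested, with a median of 0.15 beside 0.062 for all genes tested. Of the 48, 5 reached the limit on the level through the inhibitor libraries alone, which favours a positive difference: Nectin2, Cldn3, Krt10, Slc9a3r1 and Aqp3. Without them 2 of 43 were higher and 1 lower with an unadjusted limma p under 0.05, the groups were apart in 4 with the inhibitor higher and in 3 with it lower, and the median was 0.12. In the adherens junction list 3 of the 4 other tested genes had differences above 0. Nectin2, an adhesion molecule of adherens junctions, measured 1.84, 3.17 and 0.563 FPKM in inhibitor replicates 1, 2 and 3, against 0.140, 0.390 and 0.148 FPKM in controls. Afdn, which encodes afadin, the partner of nectins at the actin cortex, averaged 1.72 ± 0.267 FPKM in inhibitor and 1.21 ± 0.294 FPKM in control libraries (SD, n = 3 each). Its groups were apart by little, with a lowest inhibitor value of 1.439 FPKM and a highest control value of 1.401 FPKM (limma adjusted p = 0.7285). Epcam, an epithelial adhesion molecule and the most abundant gene of this list, averaged 27.2 ± 5.78 FPKM in inhibitor and 34.3 ± 14.8 FPKM in control libraries.

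The polarity list held 10 other tested genes, 8 above 0 and 2 below, beside 57.1% above 0 for all genes tested. Prkcz, an atypical protein kinase C that works with PAR6 proteins, measured 3.81, 3.65 and 3.84 FPKM in inhibitor replicates 1, 2 and 3, against 1.75, 1.69 and 2.09 FPKM in controls. It had the smallest p of the 55 genes tested here (log2 difference 0.75, SE 0.22, limma unadjusted p = 0.00788, adjusted p = 0.426). Crb3, a Crumbs polarity protein, averaged 109.2 ± 13.85 FPKM in inhibitor and 148.5 ± 21.6 FPKM in control libraries, with every inhibitor library below every control (log2 difference -0.44, limma adjusted p = 0.572). Cdc42, a small GTPase that binds PAR6, averaged 185.2 ± 10.4 FPKM in inhibitor and 213.9 ± 23.3 FPKM in control libraries (limma unadjusted p = 0.226, adjusted p = 0.721). Its groups were apart by little, with 197.2 FPKM in inhibitor replicate 1, the highest of its group, and 199.4 FPKM in control replicate 2, the lowest. Llgl1, a basolateral polarity protein, averaged 2.27 ± 1.21 FPKM in inhibitor and 1.17 ± 0.372 FPKM in control libraries.

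In the tight junction list 7 of the 9 other tested genes had differences above 0, beside 57.1% of all genes tested. Cldn3 was among the 7 and reached the limit on the level through the inhibitor libraries alone. None of the 9 had groups apart. F11r, which encodes junctional adhesion molecule A, was the most abundant gene of this list. It was at 82.4 to 143.7 FPKM in inhibitor and 80.4 to 106.6 FPKM in control libraries. Cldn4 and Cldn7 encode claudins, the strand proteins of tight junctions, and averaged 27.3 ± 12.0 and 7.94 ± 2.52 FPKM in inhibitor libraries, against 15.2 ± 8.22 and 5.92 ± 1.21 FPKM in controls. Cgn, which encodes cingulin, averaged 2.31 ± 1.17 FPKM in inhibitor and 1.24 ± 0.298 FPKM in control libraries. In the apical and cortical list 9 of 10 differences were above 0, beside 57.1% of all genes tested. Slc9a3r1 was among the 9 and reached the limit on the level through the inhibitor libraries alone. Myl6, a myosin light chain, was at 70.0, 77.8 and 83.9 FPKM in inhibitor libraries, against 63.5, 49.0 and 48.3 FPKM in controls (log2 difference 0.53, SE 0.18, limma adjusted p = 0.493). Slc9a3r1, which encodes the ezrin-binding scaffold NHERF1, was at 0.897, 1.92 and 1.69 FPKM in inhibitor libraries, against 0.357, 0.740 and 0.559 FPKM in controls. Actb, cytoplasmic beta-actin, averaged 49.6 ± 21.8 FPKM in inhibitor and 65.4 ± 16.9 FPKM in control libraries, and overlapped.

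Of the desmosome list 2 other genes were tested. Perp, a desmosomal membrane protein, measured 2.68, 9.41 and 2.18 FPKM in inhibitor replicates 1, 2 and 3, against 1.08, 3.09 and 0.595 FPKM in controls, and Pkp4, a plakophilin, averaged 1.02 ± 0.347 FPKM in inhibitor and 1.13 ± 0.436 FPKM in control libraries. Dsg2, a desmosomal cadherin, was listed at 0 in 5 libraries and at 0.0239 FPKM in inhibitor replicate 3. Among intermediate filament genes Lmna, Lmnb1 and Krt10 had differences of 0.15, 0.10 and 0.066, with limma adjusted p-values of 0.896, 0.910 and 0.975. In the sodium pump and fluid transport list Aqp9, an aquaporin, averaged 27.4 ± 7.10 FPKM in inhibitor and 37.8 ± 5.79 FPKM in control libraries. Aqp3, another aquaporin, averaged 2.23 ± 1.74 FPKM in inhibitor and 0.671 ± 0.453 FPKM in control libraries. The groups overlapped for both aquaporins. Of the 6 tested transcription factors of compaction and epithelial fate 1 had a difference above 0 and 5 below, with limma adjusted p-values of 0.723 to 0.988. Tead4, a factor of trophectoderm fate, averaged 6.95 ± 3.01 FPKM in inhibitor and 9.05 ± 1.53 FPKM in control libraries (SD, n = 3 each). Tfap2c averaged 10.3 ± 2.54 FPKM in inhibitor and 11.1 ± 0.420 FPKM in control libraries. Wwtr1, which encodes the TEAD partner TAZ, averaged 11.4 ± 2.11 FPKM in inhibitor and 11.65 ± 1.33 FPKM in control libraries. Grhl2, an epithelial grainyhead factor, averaged 2.99 ± 0.419 FPKM in inhibitor and 3.53 ± 0.0402 FPKM in control libraries, with the groups apart and a limma adjusted p of 0.812.

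**Figure D4:**
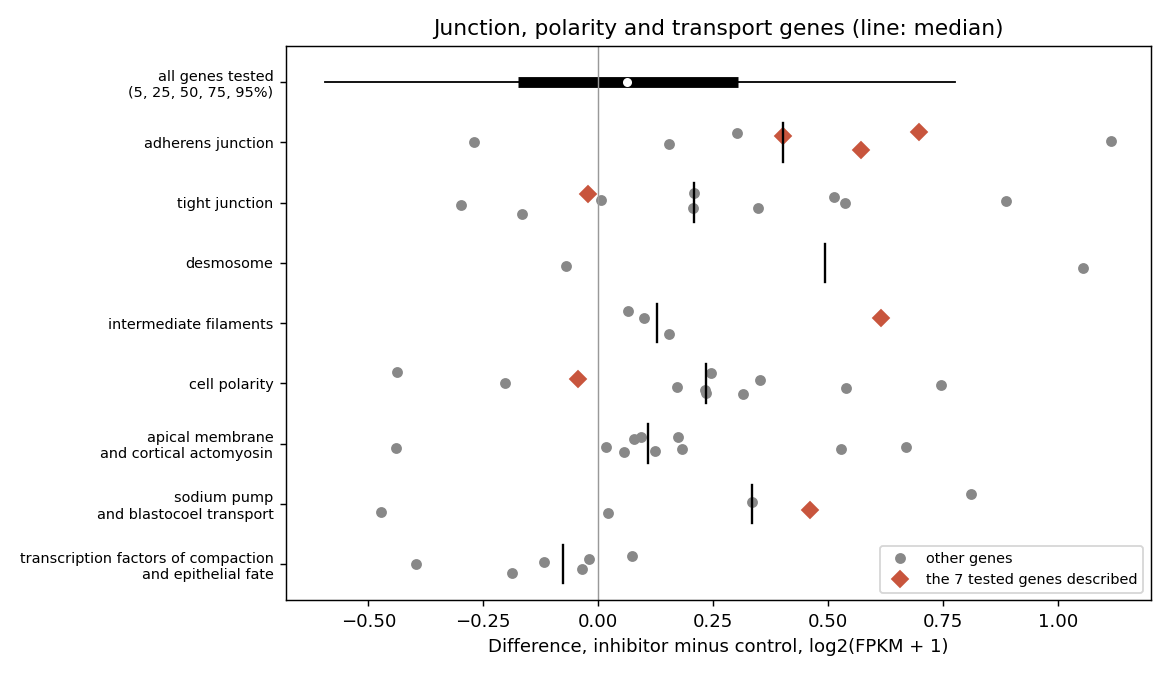
Difference between inhibitor and control libraries on the log2(FPKM + 1) scale for the tested genes of the 8 lists (points, with red diamonds for the 7 tested genes described and a line at the median), beside percentiles of all genes tested. The medians of 7 lists lie above 0 and that of the transcription factors lies at -0.077.

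The authors' deposited table gives its own p-values. In it Ctnna1 has a ratio of means of 1.61 with p = 0.00105 and q = 0.0826 in the authors' deposited table, and Cdh1 a ratio of 2.101 with p = 0.00385 and q = 0.174. For the other 8 genes the q-values of the authors' deposited table run from 0.902 to 0.995, and 0 of the 10 are among the 233 genes marked there. Nectin2 (q = 0.00870) and Prkcz (q = 0.00403) are marked in the authors' deposited table. In the authors' deposited KEGG table these are the marked genes of the terms adherens junction (1 of 72 genes, p = 0.309) and tight junction (1 of 167 genes, p = 0.578). The GO term cell adhesion holds 9 marked genes of 577 in the authors' deposited table (p = 0.0176, q = 0.141). By the KEGG labels the authors give each gene, 31 tested genes belong to the adherens junction pathway, 4 of them described here (Cdh1, Ctnnb1, Ctnna1 and Tjp1). Of the 31, 25 had log2 differences above 0 and 6 below, with a median of 0.29. Over all genes tested 57.1% were above 0, with a median of 0.062. The inhibitor libraries lay above all controls in 7 of the 31 and below them in 1, beside 9.13% and 6.26% of all genes tested. The pathway counts keep genes that reached the limit on the level through the inhibitor libraries alone, such as Nectin2. Of the 69 tested genes of the tight junction pathway 48 lay above 0 and 21 below, with a median of 0.18, and the groups were apart in 10 with the inhibitor higher and in 4 with it lower. In limma 0 genes of either pathway passed after adjustment, while before adjustment p was under 0.05 for 4 higher and 0 lower genes of adherens junctions and for 7 higher and 1 lower genes of tight junctions, beside 4.72% higher and 3.8% lower over all genes tested. The KEGG terms share genes with the lists above and with each other.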

How the data were processed

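RNA was measured in 6 libraries of 4-cell mouse embryos, 3 per group, with groups and replicate numbers taken from the sample titles. Per the labels' protocols, cDNA of whole transcripts was primed with oligo(dT), multiplied by PCR, cut and read from both ends, and neither molecular identifiers nor strand are mentioned. Per the submitters' processing notes, the authors' tools included StringTie 2.1.6, HISAT2 2.2.1, cutadapt 1.9, edgeR and DESeq2, with the build GRCm38, and the sources used here do not say what each did. Per the file headers, the authors gave FPKM for each gene in each library. Their fold (ratio of group means), its log2, and a p-value with q-value for each gene stand beside it as deposited. Enrichment tables deposited with it hold numbers of genes, taken as a score, and p-values by term.

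From these, log2(FPKM + 1) was fitted with limma 3.58.1 under R 4.3.3 (trended, robust empirical Bayes) for genes averaging 1 FPKM or more across the 6 libraries, with Benjamini-Hochberg adjustment at 0.05. The fit was tested on simulated data. All gene lists were described by counts and medians, without a set test. The 10 genes and the lists were chosen with earlier results of these data known. Named from each list were the 3 tested genes with the smallest unadjusted p and the gene with the highest mean, and others (Jup, Dsg2, Pard6a, Rdx, Cdh2, Cdh3, Tjp3 and those said to be picked later) were named after their values were seen. Some list genes that this rule takes are not reported here. GENCODE M21, also on GRCm38, held 29348 of the 29431 identifiers and gave coordinates and overlaps. Near-identical transcripts were sought with BLAST 2.17.0 at 95% identity. As alternatives, the pseudocount (0.1), the filter, the scaling, the replicate block, the empirical Bayes options and the set of libraries (each left out in turn) were varied. The count of the 7 tested genes under each alternative, and that of list genes without those above the limit in 1 group alone, were added after seeing the data.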

Additional observations from a re-analysis of the deposited data

How the results depend on the processing

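Cdh1, Ctnna1, Ctnnb1, Atp1b1 and Krt18 kept differences above 0, and 0 of the 7 tested genes passed the adjusted threshold, under all 12 alternatives. With 1 library left out the Tjp1 difference ran from -0.28 to 0.21 and that of Pard6b from -0.21 to 0.18. At an unadjusted p under 0.05 the 2 of 7 genes became 1 under quantile normalization and 0 to 2 with 1 library left out (0 without control replicate 1 or 2, and 1 without inhibitor replicate 3). The unadjusted p stayed under 0.05 in 9 of the 12 alternatives for Cdh1 and in 8 for Ctnna1. The 5 other list genes at that level became 8 with no filter on low values, 3 under median-ratio scaling, 3 under quantile normalization, 3 without the genes that reached the limit through 1 group alone (added after seeing the data), and 3 to 7 with 1 library left out (3 without control replicate 1, 2 or 3, and 7 without inhibitor replicate 1). Over all genes, 0 to 11 were called higher and 0 to 1 lower with 1 library left out (11 and 1 without inhibitor replicate 1, and 1 higher without inhibitor replicate 2). The cause of these changes was not tested, beyond there being fewer libraries. With the pseudocount 0.1 the Krt18 difference was 1.55.

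Whether the replicate numbers pair the libraries is not settled by these values. Deviations of same-numbered libraries correlated at 0.136, 0.202 and 0.0368, and those of differently numbered libraries at -0.194 to 0.0546. Control replicate 3 correlated best with inhibitor replicate 1, at 0.0546. With the replicate block 2 of the 7 genes and 7 other list genes had an unadjusted p under 0.05, and 0 passed after adjustment. Depth is unknown, so for genes under 1 FPKM the precision cannot be stated.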

Other observations

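Within each group the 10 genes were unevenly spread over the libraries. Control replicate 3 was the highest control library for 8 of the 10 (6 of the 7 tested), namely Cdh1, Ctnnb1, Krt8, Krt18, Tjp1, Pard6b, Atp1b1 and Dsp, while it was the highest control for 33.9% of all 9691 genes tested. Inhibitor replicate 3 was the highest inhibitor library for 6 of the 10 (5 of the 7 tested), against 33.1% of all genes tested, and inhibitor replicate 2, the library that stood apart, for 2 of the 10, against 37.9%. Control replicate 2 was the highest control for 0 of the 10. Lists of markers of other cells differed in the library where they were highest. The later trophectoderm and fibroblast lists summed highest in inhibitor replicate 3 (1.451 and 0.2449 FPKM) and control replicate 3 (1.253 and 0.1155 FPKM). The sperm list summed highest in inhibitor replicate 1 (0.9099 FPKM) and control replicate 1 (1.28 FPKM). The blood list did so in inhibitor replicate 3 and control replicate 1, and the cumulus and granulosa list in inhibitor replicate 2 and control replicate 3. Tnfaip6 was above 0 in inhibitor replicate 3 (0.395 FPKM) and control replicate 3 (0.990 FPKM) alone. Krt19 was above 0 in the same libraries alone, at 0.144 and 0.597 FPKM. Lyz2 was above 0 in control replicate 3 alone, at 0.976 FPKM. Other markers were above 0 elsewhere alone: Fshr in inhibitor replicate 2, and Foxl2, Cyp19a1 and Krt7 in inhibitor replicate 1. The summed cumulus and granulosa list was 13.6 to 23.9 FPKM in inhibitor and 11.1 to 17.4 FPKM in control libraries. Its main gene, Amhr2, had its lowest inhibitor value in inhibitor replicate 3 (11.33 FPKM) but its highest control value in control replicate 3 (15.59 FPKM). The uneven spread of the 10 genes was noticed in the values, and the part of these markers in it was not tested.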
